A study of Mus musculus with 4 samples.

Results

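The mitochondrial tRNAs for phenylalanine (TrnF), valine (TrnV) and leucine read from UUR codons (TrnL1) flank the 2 mitochondrial ribosomal RNAs, and their cytosines are described here in liver of mice with and without Nsun2. The members are all plus-strand cytosines listed inside the 3 genes, taken by annotated position. The genes were chosen with earlier results of these data known. The members number 43 of the 5988 positions in the table, with 10 in TrnF, 16 in TrnV and 17 in TrnL1. On mouse mitochondrial DNA (mtDNA), in the RefSeq annotation of GRCm38.p6, TrnF fills positions 1 to 68, TrnV its 69 nucleotides between the 12S rRNA gene mt-Rnr1 (positions 70 to 1024) and the 16S rRNA gene mt-Rnr2 (1094 to 2675), and TrnL1 its 75 nucleotides from there to ND1, which begins at 2751. All 3 genes lie on the plus strand as the authors' table writes it. Cytosines are named by their nucleotide in the annotated gene, counted from 1 at its 5′ end, with no structural tRNA numbering, and a position is that of the authors' table.

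The samples were 2 libraries of Nsun2-/- mice, which lack the tRNA cytosine methyltransferase NSUN2, and 2 libraries of wild-type mice. Each was made from liver lysate enriched for mitochondria, depleted of ribosomal RNA and treated with bisulfite. Age, sex, strain and the kind of Nsun2 allele are not given in the sources used here, nor whether 2 libraries of 1 genotype are from 2 animals. The p-values may therefore measure technical spread. The table covers mtDNA alone, so loss of Nsun2, a nuclear gene, could not be checked in these libraries.

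Mitochondrial DNA is transcribed as long precursors in which tRNAs sit between the other genes, and excision of the tRNAs releases the rRNAs and mRNAs on either side. The product of ND1 is a subunit of complex I. NSUN2 is known to methylate cytosines where the variable region of a tRNA meets its T arm. Bisulfite turns cytosine into uracil but leaves 5-methylcytosine (m5C), so the level of a position is its methylated reads as a percent of all reads there. The sequences of these tRNAs were not used here.

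The 3 tRNAs took 1259 and 175 cytosine calls in knockout replicates 1 and 2, and 1757 and 415 calls in wild-type replicates 1 and 2. Of all calls on either strand (99431, 453470, 89915 and 45449, in that order) this is 1.27% and 0.0386% in the knockout and 1.95% and 0.913% in wild type. In knockout replicate 2, 79.9% of calls fell on a pair of adjacent positions in mt-Rnr1, against 20.5% to 22.7% in the other libraries, and 0.252% fell on the sense strand of the 22 tRNA genes, against 6.51% to 16.5%. Knockout reads of the 3 tRNAs therefore come mostly from replicate 1, while group means below weigh both libraries equally. Unconverted cytosine was gauged in mitochondrial mRNAs, where 59 cytosines with at least 10 reads in every library had 0.0799% and 0.0809% methylated calls in the knockout and 0.203% and 0.0775% in wild type. Intervals are exact (Clopper-Pearson) 95% intervals unless named otherwise. They and Fisher's exact tests cover counting error only.

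TrnL1 held the one cytosine of the 3 tRNAs that was methylated in most wild-type reads. Its nucleotide 50, the last of a run of 3 cytosines in the variable region, was methylated in 1 of 7 reads of knockout replicate 1 and in 0 of 2 reads of knockout replicate 2. In wild type it was methylated in 8 of 9 reads of replicate 1 and in 4 of 4 reads of replicate 2. These are levels of 14.3% and 0 in the knockout and of 88.9% and 100% in wild type, which do not overlap. The intervals behind them are wide and do overlap, running over 0.361% to 57.9% and 0 to 84.2% in the knockout and over 51.8% to 99.7% and 39.8% to 100% in wild type.

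The group means at TrnL1 nucleotide 50 were 7.14% ± 10.1 in the knockout and 94.4% ± 7.86 in wild type (SD, n = 2 each), a difference of -87.3 percentage points. Summed over libraries, 1 of 9 knockout reads (11.1%) and 12 of 13 wild-type reads (92.3%) were methylated, a difference of -81.2 points with a Newcombe interval of -92.3 to -39.9. The genotype test was edgeR's quasi-likelihood test on methylated and unmethylated reads, run on all 681 cytosines of the table where each genotype had 5 or more reads. TrnL1 nucleotide 50 had an edgeR p of 0.0374 and a Benjamini-Hochberg adjusted p of 1, so it was not called. The site passed in other fits of the same 681 cytosines, with an adjusted p of 0.0131 in edgeR when the quasi-dispersion had no abundance trend and 0.0231 in Fisher's exact test on summed reads, while limma on log2 odds gave an adjusted p of 0.529. A two-sided exact permutation test of its level over the libraries gave p = 0.3333, which 2 against 2 cannot go below.

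The cytosines next to it on the 5′ side, TrnL1 nucleotides 48 and 49, showed no such level. Nucleotide 48 was methylated in 1 of 7 and 0 of 2 knockout reads and in 0 of 9 and 0 of 3 wild-type reads, each in replicates 1 and 2. Nucleotide 49 was methylated in 0 of 7 and 0 of 2 knockout reads and in 0 of 9 and 0 of 4 wild-type reads. In wild type, the 3 adjacent cytosines therefore had 0 of 12, 0 of 13 and 12 of 13 reads methylated. In the knockout they had 1 of 9, 0 of 9 and 1 of 9, the same level at nucleotide 50 as at 48. The differences of group means, knockout minus wild type, were 7.14 points at nucleotide 48 and 0 at 49, and edgeR's adjusted p was 1 for both. The Newcombe intervals of the summed differences ran from -14.8 to 43.5 points at nucleotide 48 and from -22.8 to 29.9 points at 49. With no methylated wild-type read at either site, a fall like the -81.2 points at nucleotide 50 could not have been seen there. The intervals are therefore no contrast with nucleotide 50, and changes within them were not detectable at this depth.

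**Figure D1:**
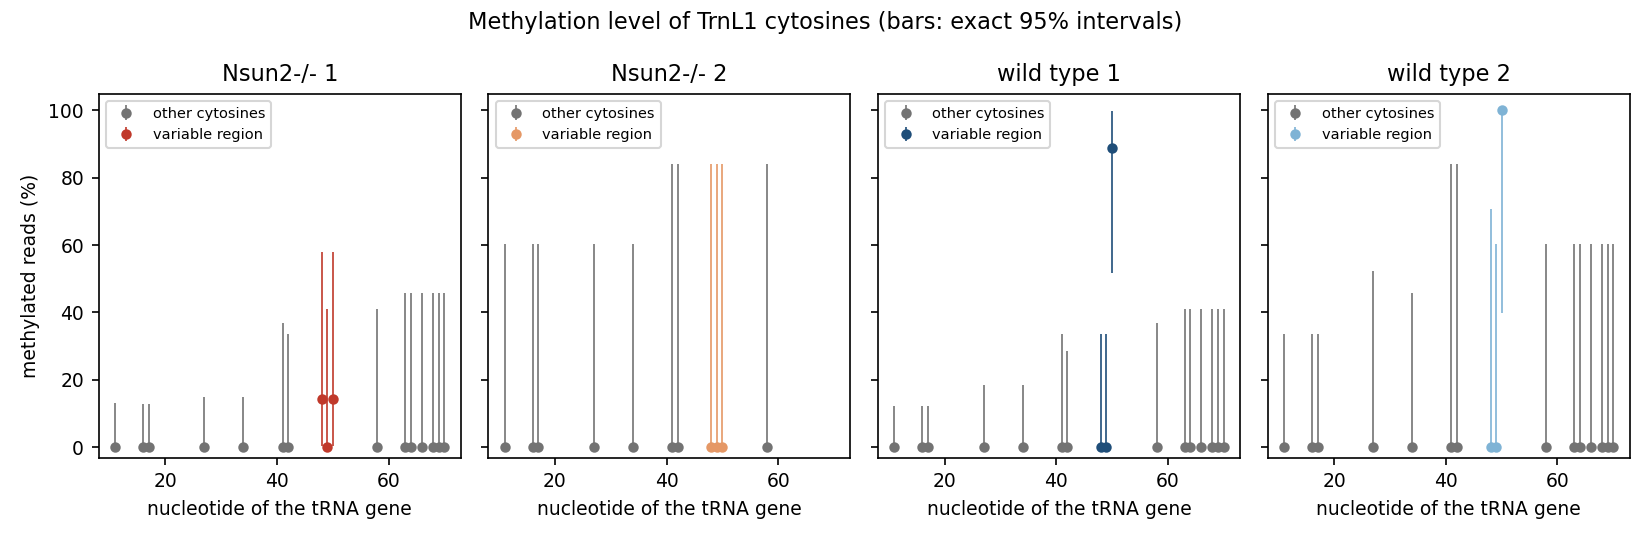
Methylated reads in percent (y axis) at each cytosine of TrnL1 by nucleotide of the gene (x axis), 1 panel per library, with Nsun2-/- libraries left of wild-type libraries. Coloured points are variable region cytosines, grey points the others, and bars exact 95% intervals; cytosines without reads are not drawn. Nucleotide 50 stands at 14.3% and 0 in the knockout panels and at 88.9% and 100% in the wild-type panels.

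The other 14 cytosines of TrnL1 had no methylated read in any library. Knockout replicates 1 and 2 had 0 of 186 and 0 of 26 calls methylated there, and wild-type replicates 1 and 2 had 0 of 190 and 0 of 70. A count of 0 allows a level of up to 1.61% and 11.5% in the knockout and of up to 1.58% and 4.29% in wild type. The 3 variable region cytosines together had 9.52% (interval 1.17% to 30.4%) and 0 (0 to 45.9%) in the knockout, and 29.6% (13.8% to 50.2%) and 36.4% (10.9% to 69.2%) in wild type. The wild-type excess of the variable region over the rest of TrnL1 rested on nucleotide 50 in both libraries: without it, 0 of 208 and 0 of 77 wild-type calls of the gene were methylated. Neighbouring cytosines share reads, so calls summed over cytosines are fewer molecules than they seem.

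TrnV, which had more reads, held no such site. Its cytosine assigned to the variable region, nucleotide 49, was methylated in 0 of 122 and 0 of 17 knockout reads and in 2 of 171 and 0 of 38 wild-type reads, each in replicates 1 and 2. That place was assigned without a sequence or structure. It lies 20 nucleotides before the last of the gene, where nucleotide 50 of TrnL1 lies 25 before it. Whether it is the counterpart of the TrnL1 site was not checked. The 2 methylated reads give 1.17% in wild-type replicate 1 (interval 0.142% to 4.16%), and the counts of 0 allow up to 2.46% and 17.6% in the knockout and up to 7.89% in wild-type replicate 2. The groups overlapped at 0. The means were 0 in the knockout and 0.585% ± 0.827 in wild type (SD, n = 2 each), and the difference of -0.585 points had an adjusted p of 1 in edgeR. The Newcombe interval of the summed difference ran from -3.42 to 1.82 points. At so low a wild-type level a fall like that at TrnL1 nucleotide 50 could not occur, so the interval is no contrast with that site.

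The other 15 cytosines of TrnV had 4 of 906 and 0 of 120 methylated calls in the knockout and 2 of 1300 and 0 of 279 in wild type, each in replicates 1 and 2. As levels these are 0.442% (interval 0.120% to 1.13%) and 0 in the knockout, and 0.154% (0.0186% to 0.555%) and 0 in wild type. In the 2 replicates numbered 2 the counts of 0 allow up to 2.5% in the knockout and 1.08% in wild type. The means were 0.221% ± 0.312 in the knockout and 0.0769% ± 0.109 in wild type (SD, n = 2 each; two-sided exact permutation p = 1). In wild-type replicate 1 the interval of nucleotide 49 overlaps that of the other cytosines of the gene.

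Methylated reads in TrnV were scattered. In knockout replicate 1 they stood at nucleotide 38 (1 of 69 reads), 64 (1 of 123) and 66 (2 of 122), and in wild-type replicate 1 at nucleotide 37 (1 of 85), 49 (2 of 171) and 66 (1 of 171). Nucleotide 66, at position 1090 and the last cytosine of the gene, was the one cytosine with methylated reads in both genotypes. Its summed level was 1.42% in the knockout and 0.474% in wild type (edgeR adjusted p = 1). No TrnV cytosine with at least 5 summed reads reached 5% in either genotype.

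**Figure D2:**
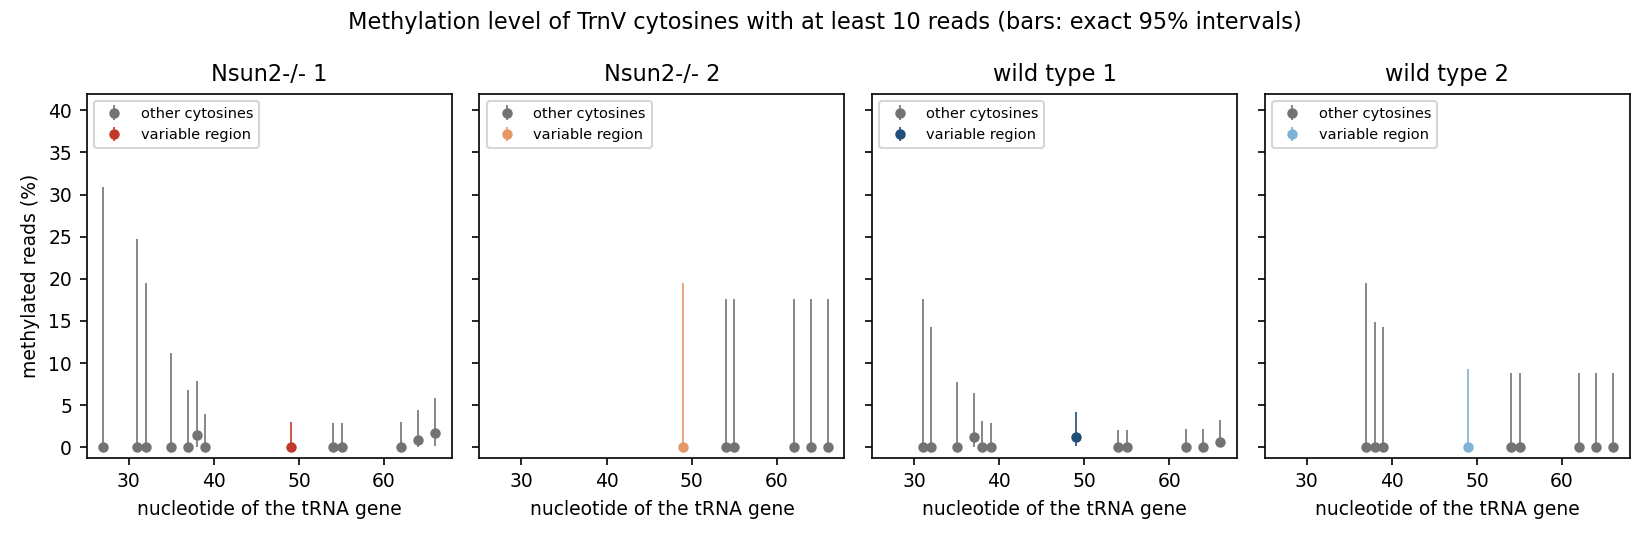
Methylated reads in percent (y axis) at the cytosines of TrnV with at least 10 reads in the library, by nucleotide of the gene (x axis), 1 panel per library, with Nsun2-/- libraries left of wild-type libraries. Coloured points are nucleotide 49, the cytosine assigned to the variable region, grey points the others, and bars exact 95% intervals. Every point lies under 2%, and the bars are longer where fewer reads lie.

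TrnF carried no methylated read. Its 10 cytosines had 0 of 24 and 0 of 6 methylated calls in the knockout and 0 of 69 and 0 of 17 in wild type. These counts allow up to 12.5% and 50% in the knockout and up to 4.35% and 17.6% in wild type. No cytosine of TrnF was assigned to the variable region; of the nucleotides 20 to 29 before the last of the gene, the one listed cytosine was nucleotide 40, with 0 and 1 reads in the knockout and 7 and 1 in wild type. TrnF nucleotides 59, 60, 61 and 67 had the deepest coverage, with 6 and 1 reads each in the knockout and 13 and 4 in wild type. The first cytosine, nucleotide 11, had a read in wild-type replicate 1 alone. The limits above are for calls summed over the gene, where the same reads count at several cytosines, and do not bound a single site. At each of nucleotides 59, 60, 61 and 67, the summed count of 0 allows up to 42.9% in the knockout and 17.6% in wild type. A methylated site below those levels was not detectable at this depth, and the limits are wider at the other cytosines.

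Counted over the 3 genes, 35 of the 43 cytosines reached 5 reads in each genotype and entered the genotype test, namely 4 of 10 in TrnF, 14 of 16 in TrnV and all 17 in TrnL1. Of these 35, edgeR called 0 lower and 0 higher in the knockout at an adjusted p under 0.05 with a difference of at least 10 points. Over all 681 tested cytosines, 3 (0.441%) were called lower and 0 (0%) higher. An unadjusted p under 0.05 was reached by 1 of the 35, TrnL1 nucleotide 50, and by 6 of all 681. Among the 35, edgeR without the abundance trend and Fisher's exact test each called TrnL1 nucleotide 50, and limma called 0. Over all 681, these 3 fits called 4, 4 and 1 cytosines lower, in that order, and 0 higher. The knockout mean was below wild type at 3 of the 35 and above it at 4, and the median difference was 0. Over all 681 it was below wild type at 72 and above it at 45, with a median difference of 0. Of the 28 members with reads in every library, 1 (TrnL1 nucleotide 50) had every knockout level below every wild-type level, where 2.71% of the 553 tested cytosines with reads in every library did.

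The place of TrnL1 nucleotide 50 was compared with variable region cytosines of the other tRNAs, taken as those 20 to 29 nucleotides before the last annotated nucleotide. That window held 23 listed cytosines in 13 of the 22 tRNA genes, of which 11 cytosines in 6 genes entered the test. TrnL1 nucleotide 50 lies 25 nucleotides before the last, as do TrnM 3888 in the methionine tRNA and TrnS2 11646 in the serine tRNA for AGY codons, while TrnH 11588 in the histidine tRNA lies 24 before it. These were the 4 tested window cytosines with a summed wild-type level of at least 10%, a choice that favours a lower knockout level. In the knockout, TrnH 11588 and nucleotides 48 and 50 of TrnL1 reached 10%, and of these nucleotide 48 had 1 of 9 knockout reads and 0 of 12 wild-type reads methylated. The summed levels of the 4 sites were 11.1%, 0, 0.641% and 15.8% in the knockout and 92.3%, 82.0%, 70.8% and 99.6% in wild type. The knockout minus wild type differences of means were -87.3, -71.0, -57.0 and -91.4 points, and edgeR called the last 3 (adjusted p = 1.35e-05, 2.68e-12 and 3.97e-15) but not the TrnL1 site, which had 9 knockout reads where the others had 36, 156 and 38.

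A split of the window by distance, made after these values were seen and not tested, separates those sites further. Of 5 tested cytosines 24 or 25 nucleotides before the last, 4 had a wild-type level of at least 10%, the exception being TrnS2 11647 at 0.769%. TrnL2 11716 and 11717, in the other leucine tRNA, lie 25 and 24 before the last and were not tested. They had 0 of 2 and 2 of 2 wild-type reads methylated and no knockout read. Of 6 tested cytosines elsewhere in the window, nucleotides 48 and 49 of TrnL1 and nucleotide 49 of TrnV among them, 0 did, and the highest wild-type level was 0.957%, at the TrnV site. TrnV and TrnF have no listed cytosine 24 or 25 nucleotides before the last. The window cytosine of TrnV lies 20 and that of TrnF 28 nucleotides before it.

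**Figure D3:**
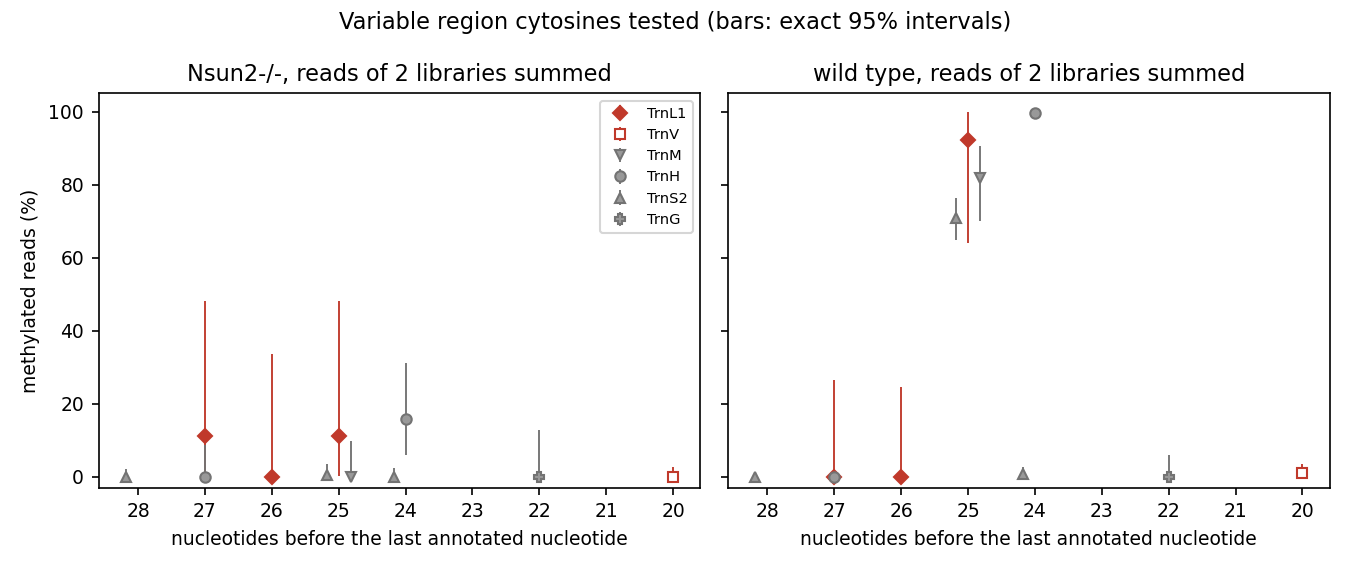
Methylated reads in percent, summed over the 2 libraries of a genotype (y axis), at the 11 tested cytosines of the tRNA variable region window, by distance from the last annotated nucleotide (x axis), for Nsun2-/- (left) and wild type (right). Red symbols are TrnL1 (filled) and TrnV (open), grey symbols other tRNAs, TrnM and TrnS2 are shifted sideways for legibility, and bars are exact 95% intervals. In wild type 4 sites at 24 or 25 nucleotides stand above 70%, and in the knockout none of the 11 exceeds 15.8%.

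Coverage did not run alike along the 3 tRNAs, rising towards the 3′ end in TrnV and TrnF and falling in TrnL1. In TrnV it was lowest at the 5′ end, with 0 and 0 reads at nucleotide 1 in the knockout and 2 and 1 in wild type. It was highest at nucleotides 54 and 55 (positions 1078 and 1079), with 124 and 19 reads in the knockout and 174 and 40 in wild type, and at nucleotide 66, the last cytosine, it was 122 and 19 in the knockout and 171 and 40 in wild type. Mean coverage of the 10 cytosines on the 3′ side of the gene's midpoint was 12.8 and 26.8 times that of the 6 on the 5′ side in the knockout, and 14.1 and 20.5 times in wild type. All 4 libraries had this shape. In TrnF, mean coverage on the 3′ side was 4.8 and 1 reads in the knockout and 11.8 and 3.4 in wild type. On its 5′ side it was 0 and 0.2 reads in the knockout and 2 and 0 in wild type.

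TrnL1 had the opposite slope. At its first cytosine, nucleotide 11 (position 2686), it had 26 and 4 reads in the knockout and 28 and 9 in wild type, and at its last, nucleotide 70 (position 2745), it had 6 and 0 in the knockout and 7 and 4 in wild type. Its deepest cytosines were nucleotides 16 and 17 (positions 2691 and 2692), with 27 and 4 reads in the knockout and 28 and 9 in wild type. The mean coverage on the 3′ side of the midpoint was 0.268 and 0.25 times that on the 5′ side in the knockout, and 0.337 and 0.471 times in wild type. The step fell between nucleotide 34 (position 2709), with 23 and 4 knockout reads and 18 and 6 wild-type reads, and nucleotide 41 (position 2716), with 8 and 2 knockout reads and 9 and 2 wild-type reads. The cytosines assigned to the variable region therefore lay in the shallow part of TrnL1 and in the deep part of TrnV, in both genotypes.

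**Figure D4:**
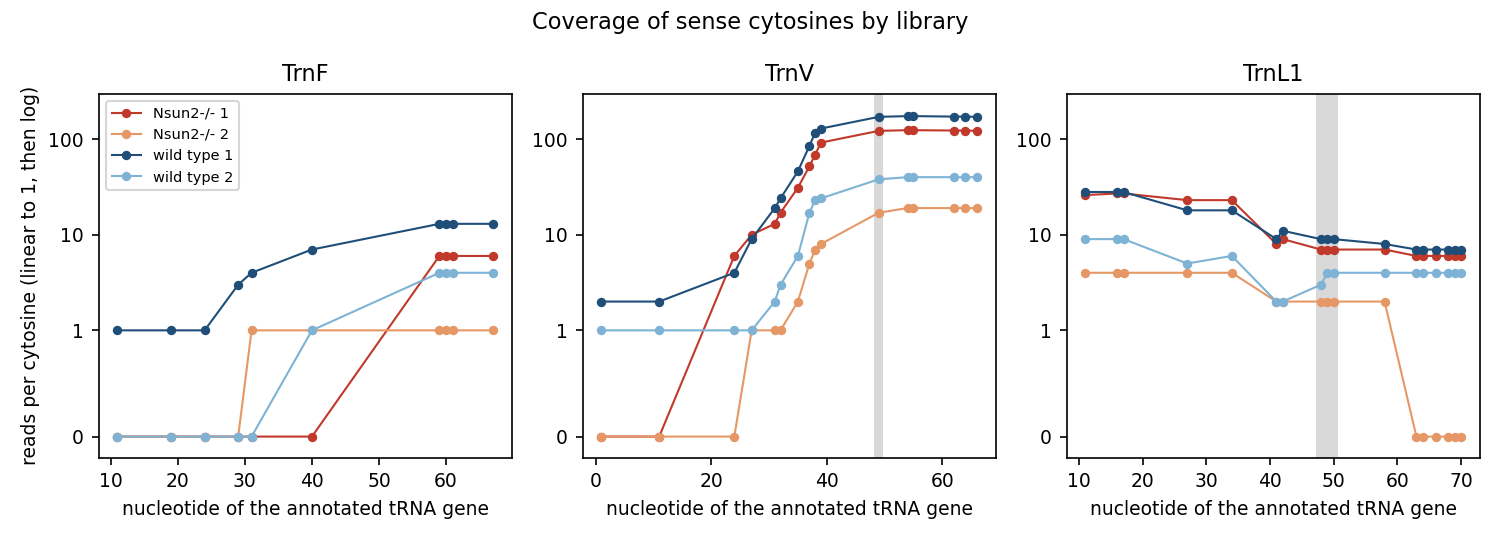
Reads per sense cytosine (y axis, linear up to 1 and logarithmic above) by nucleotide of the gene (x axis) in TrnF, TrnV and TrnL1, 1 line per library, with grey bands at the cytosines assigned to the variable region. In TrnV coverage climbs towards the 3′ end, from at most 2 reads at its first cytosine to 19 to 171 reads at its last. TrnF climbs the same way at fewer reads, and TrnL1 is highest towards the 5′ end.

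At most borders of the 3 tRNAs coverage stopped short. Downstream of TrnV, the last tRNA cytosine had 122 and 19 reads in the knockout and 171 and 40 in wild type. The first cytosine of mt-Rnr2, position 1095, had 2 and 0 reads in the knockout and 4 and 3 in wild type. Downstream of TrnF, position 69, which is in neither gene, had 2 and 1 reads in the knockout and 2 and 2 in wild type, and the 4 cytosines in the first 30 nucleotides of mt-Rnr1 had no read in any library. Upstream of TrnL1, the 8 cytosines in the last 30 nucleotides of mt-Rnr2 averaged 1.88 and 0 reads in the knockout and 2 and 1 in wild type, against 25.8 and 4 in the knockout and 25.5 and 8 in wild type over the first 30 nucleotides of TrnL1. Downstream of TrnL1, its last cytosine had 6 and 0 reads in the knockout and 7 and 4 in wild type. The 8 cytosines in the first 30 nucleotides of ND1 had no read in any library.

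The border of mt-Rnr1 with TrnV showed no such step. Position 1014, the last cytosine of mt-Rnr1, had 6 and 5 reads in the knockout and 2 and 2 in wild type, and nucleotide 1 of TrnV had 0 and 0 in the knockout and 2 and 1 in wild type. rRNA was depleted from these samples before sequencing, so the drops at the rRNA borders cannot be told apart from that depletion. ND1 is not an rRNA gene, and the libraries were small RNA libraries. The cause of the drops was not tested.

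**Figure D5:**
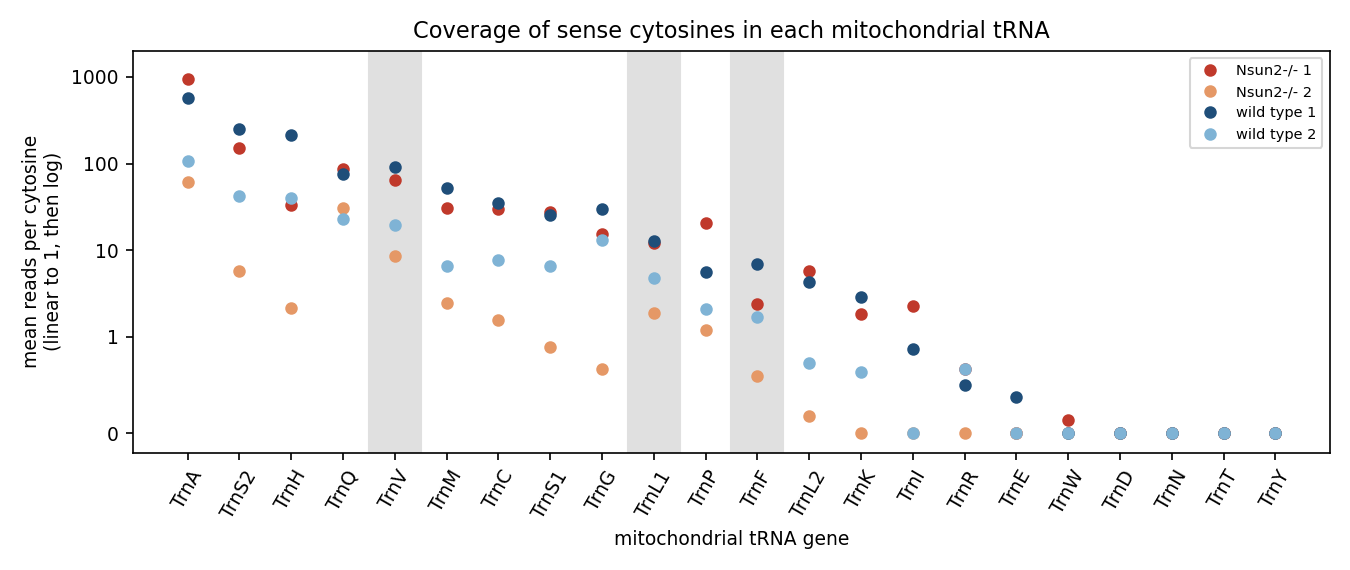
Mean reads per sense cytosine (y axis, linear up to 1 and logarithmic above) in the 22 mitochondrial tRNA genes (x axis), ordered by their mean over the 4 libraries, 1 point per library. Grey bands mark TrnV, TrnL1 and TrnF, of which TrnV is the deepest in every library.

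Among the 22 mitochondrial tRNA genes, TrnV ranked 4th and 3rd in mean reads per cytosine in knockout replicates 1 and 2, and 4th and 5th in wild-type replicates 1 and 2. The means of TrnV were 64.3 and 8.56 reads in the knockout and 91.9 and 19.8 in wild type. TrnL1 had 12.2 and 1.88 reads per cytosine in the knockout and 12.8 and 4.76 in wild type, and ranked 11th and 7th in the knockout and 10th in both wild-type libraries. TrnF had 2.4 and 0.6 reads per cytosine in the knockout and 6.9 and 1.7 in wild type, with ranks of 13 and 12 in the knockout and 11 and 12 in wild type. The median over the 22 genes was 8.95 and 0.633 reads in the knockout and 6.25 and 1.9 in wild type. In this assay fewer tRNA molecules, poorer recovery and a different fragment pattern cannot be told apart.

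As a share of all calls, the mean of each of the 3 tRNAs was lower in the knockout than in wild type, and no share could pass a test of 2 against 2 libraries. TrnV took 1.03% and 0.0302% of calls in the knockout and 1.64% and 0.697% in wild type, means of 0.532% ± 0.710 and 1.17% ± 0.664 (SD, n = 2 each; two-sided exact permutation p = 0.667). TrnL1 took 0.208% and 0.00706% in the knockout and 0.241% and 0.178% in wild type (exact permutation p = 0.667). TrnF took 0.0241% and 0.00132% in the knockout and 0.0767% and 0.0374% in wild type; here the groups did not overlap (exact permutation p = 0.3333, the smallest possible). Within tRNA calls alone, the share of TrnF was 0.172% and 0.526% in the knockout and 0.464% and 0.575% in wild type, and the groups overlapped (exact permutation p = 0.667). The share of TrnL1 among tRNA calls was 1.49% and 2.80% in the knockout and 1.46% and 2.74% in wild type. Its groups overlapped (exact permutation p = 0.667). Of tRNA calls, TrnV took 7.39% and 12.0% in the knockout and 9.90% and 10.7% in wild type (exact permutation p = 1).

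Positions of the 3 genes that are not listed on the plus strand gave no methylated read. The 10 minus-strand positions listed in TrnF had no read in any library. The 27 positions that the table lists without a strand all lie in TrnV (11) and TrnL1 (16). Those in TrnV had 18 and 15 calls in the knockout and 26 and 22 in wild type, and those in TrnL1 had 8 and 4 calls in the knockout and 0 in both wild-type libraries.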

How the data were processed

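Cytosine calls were measured in bisulfite-treated RNA of 4 small RNA libraries of mouse liver. Per the submitters' processing notes, the tools were Trim Galore and Bismark and the build GRCh38, a human one; no mouse build is given in the sources used here. The deposited counts are, per the file headers, m5C and C reads per mtDNA position and library, not normalized. At some positions m5C exceeds C, so coverage is the sum of both. Gene borders came from RefSeq for GRCm38.p6 (37 mitochondrial genes). The 27 positions without a strand stayed out of the tests.

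Levels are methylated reads over coverage. edgeR 4.0.16 in R 4.3.3 fitted methylated and unmethylated counts with a term per library, methylation state and genotype by state, common dispersion without a trend and glmQLFit's default abundance trend in the quasi-dispersion. It used all positions on either strand with 5 or more reads in each genotype, Benjamini-Hochberg adjustment over all of them, and a call at an adjusted p under 0.05 and at least 10 points. Group levels and shares of calls were compared by two-sided exact permutation tests. The limit at a count of 0 is the level of 3 calls and is given above 3 calls. limma 3.58.1 used log2((methylated + 0.5)/(unmethylated + 0.5)); scipy 1.17.1 and statsmodels 0.14.6 gave intervals. The tests were tested on simulated reads, with lowered sites drawn only from cytosines with at least 10 reads in each genotype. TrnL1 nucleotide 50, with 9 knockout reads, lies outside that setting. Libraries of a genotype differed in calls over genes by more than counting noise (chi-square tests), which shows no more than that neither pair is a repeat deposit of 1 library.

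Members, lists and the minimum of 5 reads were chosen with earlier results of these data known. The minimum was set at 5 reads per genotype so that TrnL1, known to be shallow, would enter the test. Named singly are the 4 variable region cytosines, the first, last and deepest cytosine of each tRNA, any other member with 5 reads and a level of at least 5%, window cytosines of other tRNAs at 10% or called, and border coverage within 30 nucleotides. Cytosines with methylated reads in TrnV, nucleotides 34 and 41 of TrnL1, TrnS2 11647 and position 69 were named after their values were seen.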

Additional observations from a re-analysis of the deposited data

How the results depend on the processing

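Of 97 alternative values for the 12 results, 89 were kept. Kept values did not turn sign or cross the threshold, or were counts within 1.5 times the reported one. Among them the difference at TrnV nucleotide 49 became 0 without wild-type replicate 1. Many of the 89 could not change. Exact permutation tests over these libraries never go below p = 0.3333, and a difference of 0 cannot turn sign. Values from reads summed over the genotype reuse the p of the main fit. The 89 are therefore no measure of how robust the results are. The count of lower cytosines over the whole table, 3, became 0 with at least 10 reads in every library, 1 with limma and 5 with a difference threshold of 5 points, and ran from 0 (without knockout replicate 1) to 3 with 1 library left out. It was 4 with Fisher's exact test and without the abundance trend, an alternative added after seeing the data; nucleotide 50 of TrnL1 (-87.3 points) was then called, at adjusted p = 0.0231 and 0.0131, against adjusted p-values of 0.529 to 1 in its other fits. There the difference was -81.7 points without wild-type replicate 2 and -80.2 without knockout replicate 2. Without either replicate 1, or at 10 reads per genotype, nucleotides 48 to 50 of TrnL1 had too few reads and were not fitted. The count of higher cytosines was 0 throughout. The difference over the other TrnV cytosines, 0.144 points, turned to -0.0769 without knockout replicate 1 (0.365 at most without single libraries). The difference in TrnL1's share of calls, -0.102 points, turned to 0.0461 points within tRNA calls and ran from -0.203 to -0.0016 without single libraries. For TrnF's share this range was -0.064 to -0.0247, for TrnV's -1.14 to -0.133, and for TrnV nucleotide 49 -1.17 to 0 points. With the replicate number as a block, a pairing no label states, 2 cytosines were called lower and nucleotide 50 of TrnL1 had an adjusted p of 1 in edgeR. Replicate deviations correlated at -0.261 over 553 cytosines; the crossed pairing, added after seeing the data, called 3 lower and 0 higher. Nucleotide 50 of TrnL1 rests on 9 knockout and 13 wild-type reads, and its call changes with the fit at that depth.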
